A study of Rattus norvegicus with 16 samples.

Results

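The mammalian circadian clock genes Dbp, Tef, Nr1d1, Nr1d2, Per1, Per2, Per3, Ciart, Bmal1 (older name Arntl) and Npas2 were followed across livers of adult male Sprague-Dawley rats. Their probes were chosen by gene name, through the transcript accession that the array files give for each probe, and all 10 genes had at least 1 probe among the 26913 names on the array. The liver signal was bright enough for a test at 6 of them (Dbp, Tef, Nr1d1, Per2, Bmal1 and Npas2), of 11091 features tested. The other 4 (Nr1d2, Per1, Per3 and Ciart) were too dim in liver and are described only.

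The series asked how fostering of a litter at birth and exposure of the dam to a mixture of contaminants mark the liver of the offspring. The 16 arrays held 4 groups of 4. MM pups were born to dams given 1.0 mg/kg/day of the mixture (organochlorine pesticides, polychlorinated biphenyls and methylmercury, in corn oil) and were fostered by another dam on the same dose. M pups had dams on that dose and stayed with them, CC pups had dams given corn oil alone and were fostered by another such dam, and C pups had corn oil dams and stayed with them. Dosing ran through gestation and lactation up to postnatal day 20, and livers were taken at 78 to 86 days of age, so all groups were adult and no longer dosed. Each array carried RNA pooled from 2 rats, and 8 pups stood for each group. Which pups were littermates, and the hour at which livers were taken, are not given in the sources used here, so p-values measure the spread between pools. A description field of the M samples calls them controls, against their titles and treatment entries, which were followed here.

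Liver RNA was labelled with Cy5 and a common reference RNA from 14 rat cell lines with Cy3 throughout, and dyes were never swapped. Each value given is the log2 of a probe's liver signal over its reference signal, so that 0 is an equal signal and 1 is a doubling in liver. Every M and MM array lay on 1 slide and every C and CC array on the other, so exposure and slide cannot be told apart in M minus C and MM minus CC. Fostering (CC minus C and MM minus M) was compared within a slide. Each slide had 2 rows, with 2 arrays of each group in each row.

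In this clock, BMAL1 pairs with CLOCK or with its relative NPAS2 and switches on genes that carry an E-box. PER and CRY proteins, made from such genes, then block that pair, and REV-ERB proteins (from Nr1d1 and Nr1d2) shut Bmal1 itself through ROR elements. DBP and TEF, made under E-box control, act through D-boxes and pass the rhythm on to many liver genes, so that in rodent liver Dbp and Bmal1 transcripts peak at nearly opposite times of day.

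Promoter sequence of the tested genes with such an element near the annotated start is shown here, since it marks which of the genes below carry an element read by another of them. The windows run from 250 bases before to 50 after a RefSeq start site on the rat build GRCr8, 5′ to 3′ on the gene's strand, and all 10 genes had 1 window, with 2 for Nr1d1. The letters CACGTG (E-box), TTATGTAA or TTACGTAA (D-box) and TAGGTCA or TGGGTCA (ROR element) were searched on both strands, and matches are in capitals. The Tef window is chr7:115206577-115206876 on the plus strand, with an E-box 198 bases before the start. It lies wholly inside the gene, whose annotated span begins at 115197180. Nr1d1 had no match in the window of its upstream start site, and that of its downstream start site is chr10:84229405-84229704 on the minus strand, with an E-box 191 bases before the start. The Per2 window is chr9:99496944-99497243 on the minus strand, with a D-box 192 bases before the start. The Bmal1 window is chr1:176766078-176766377 on the plus strand, with a ROR element 16 bases before the start.
Tef: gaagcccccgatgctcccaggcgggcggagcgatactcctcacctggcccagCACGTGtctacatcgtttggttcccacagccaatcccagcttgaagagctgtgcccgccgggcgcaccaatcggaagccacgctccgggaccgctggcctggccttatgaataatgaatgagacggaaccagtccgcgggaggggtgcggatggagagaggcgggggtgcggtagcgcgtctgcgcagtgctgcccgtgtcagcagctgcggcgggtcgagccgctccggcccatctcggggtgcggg
Nr1d1: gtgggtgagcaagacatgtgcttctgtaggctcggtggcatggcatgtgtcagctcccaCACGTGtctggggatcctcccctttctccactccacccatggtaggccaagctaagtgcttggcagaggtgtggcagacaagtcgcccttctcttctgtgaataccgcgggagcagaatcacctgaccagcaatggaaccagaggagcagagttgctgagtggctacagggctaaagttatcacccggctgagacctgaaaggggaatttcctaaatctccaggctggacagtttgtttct
Per2: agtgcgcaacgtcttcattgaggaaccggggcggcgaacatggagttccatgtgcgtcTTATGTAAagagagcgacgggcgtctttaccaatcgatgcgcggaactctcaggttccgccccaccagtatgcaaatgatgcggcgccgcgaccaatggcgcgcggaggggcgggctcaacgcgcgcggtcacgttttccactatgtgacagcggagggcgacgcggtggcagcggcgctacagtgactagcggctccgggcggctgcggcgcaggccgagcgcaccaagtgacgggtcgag
Bmal1: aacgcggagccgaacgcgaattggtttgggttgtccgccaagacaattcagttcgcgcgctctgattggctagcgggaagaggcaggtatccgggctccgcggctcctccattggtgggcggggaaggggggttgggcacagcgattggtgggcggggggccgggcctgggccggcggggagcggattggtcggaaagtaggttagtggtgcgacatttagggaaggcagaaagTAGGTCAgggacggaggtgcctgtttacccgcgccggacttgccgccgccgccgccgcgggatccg

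Ciart had 3 E-boxes, 93, 35 and 21 bases before its start, and the windows of Dbp, Nr1d2, Per1, Per3 and Npas2 held none of these letters. As for Tef, the windows of Per1, Per3, Ciart and Npas2 lie wholly inside the annotated gene. Sequence ahead of the gene was not searched for them. Among 33469 windows of the same length an E-box stood in 6.42%, either D-box in 1.01% and either ROR element in 6.6%. A match is a description of the sequence and no evidence of binding.

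The tissue label was borne out by its markers. All 8 hepatocyte markers were well above background on all 16 arrays, and Alb (albumin) ran from 7.57 to 8.27 in log2 ratio, while Col1a1 (a collagen of stellate cells and fibroblasts) ran from -3.05 to -2.19. The liver signal cleared the background at 35.0% (MM replicate 3) to 41.9% (M replicate 8) of probes. Correlations of log ratios between arrays ran from 0.941 to 0.985, with 0 pairs of arrays alike in every value.

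Dbp, the D-box activator that is a direct output of the clock, varied more between pools than nearly any other gene. Its log2 ratios were 1.49, 1.59, 1.56 and -0.07 on the MM arrays, 0.28, 0.64, 1.13 and 2.28 on the M arrays, 0.45, 0.44, -0.25 and 1.76 on the CC arrays and 0.02, -1.28, -0.58 and 0.94 on the C arrays. Every group had pools far apart, and all groups overlapped. MM replicate 4 lay below 3 of the 4 CC pools, while CC replicate 4 stood above all 4 MM pools. From the lowest pool (C replicate 10) to the highest (M replicate 8) the span was 3.57 log2 units, an 11.9-fold difference, and it lay in the liver channel, where the span was 3.77, against 0.21 in the reference channel. The residual SD within groups was 0.87, against a median of 0.18 over all features, and 19 of 11085 features had a larger one. Dbp has 2 further probes on the array. Their deviations from group means followed those of the brightest probe at r = 0.98 and 0.91, with spans of 2.99 and 3.01.

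Tef, the close relative of Dbp, varied less. It stood at 1.33, 1.39, 0.72 and 0.42 on the MM arrays, at 0.83, 1.02, 0.95 and 1.32 on the M arrays, at 0.83, 0.83, 0.25 and 1.23 on the CC arrays and at 0.39, 0.34, -0.15 and 0.38 on the C arrays. The M pools (lowest 0.83) and the MM pools (lowest 0.42) lay above the C pools (highest 0.39), while MM overlapped CC and CC overlapped C. M and MM lay on 1 slide and C on the other. The share of all features whose pools lay apart in this way was not counted, so the gap is not read as a trait of Tef. The residual SD was 0.35, larger than that of 90.1% of features.

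Nr1d1, which encodes the REV-ERB-alpha repressor, had close group means. Its log2 ratios were 1.1, 1.04, 0.99 and 0.88 in MM, 0.81, 0.97, 1.09 and 1.13 in M, 1.06, 1.27, 0.76 and 1.20 in CC and 0.92, 0.99, 0.38 and 1.17 in C. The lowest value, in C replicate 11, lay apart from the other C pools, and every pair of groups overlapped. The residual SD was 0.22.

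Per2, a repressor of the BMAL1 pair, was close to the detection limit, with the liver signal well above background on 12 of 16 arrays (all 4 MM, 3 M, 3 CC and 2 C). It stood at 0.36, 0.53, 0.30 and 0.05 in MM, at 0.24, 0.04, 0.08 and 0.37 in M, at 0.24, 0.27, -0.09 and 0.47 in CC and at 0.20, -0.12, -0.01 and -0.01 in C. The groups overlapped, and the residual SD of 0.18 equalled the median feature's. This spread depends on the processing: the span of Per2 was 0.66 log2 units here, 0.63 in the authors' deposited table and 1.98 in the scanner software's own ratio.

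Bmal1, the core activator, ran the other way from Dbp in most pools. Its log2 ratios were -0.40, -0.14, -0.37 and 0.33 in MM, 0.55, 0.14, 0.05 and -0.12 in M, 0.17, 0.13, 0.47 and -0.11 in CC and 0.46, 0.79, 0.22 and 0.24 in C. MM replicate 4 and M replicate 5, the pools with the least Dbp in their groups, had the most Bmal1 there, and so did CC replicate 3 and C replicate 10. The signal was well above background on 14 of 16 arrays, all but MM replicates 1 and 3, where Bmal1 was lowest. The residual SD was 0.28, larger than that of 80.5% of features. The scale depends on the processing at such signals: the span of Bmal1 was 1.18 log2 units here, 1.26 in the authors' deposited table and 3.08 in the scanner software's own ratio.

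Npas2, the partner that can stand in for CLOCK, stood at 0.63, 0.55, 0.42 and 0.49 in MM, at 0.53, 0.62, 0.26 and 0.18 in M, at 0.98, 0.85, 0.46 and 0.62 in CC and at 1.09, 0.81, 0.51 and 0.65 in C. The lower slide row (row 2) gave the 2 lowest values in all groups. C and CC lay higher on average, and each of the groups compared overlapped. A dimmer probe of Npas2 did not follow the brighter 1 (r = 0.30 between their deviations). It read 0.06, -0.03, -0.01 and 0.42 in MM, 0.47, 0.26, 0.27 and -0.06 in M, 0.29, 0.51, 0.25 and 0.01 in CC and 0.23, 0.75, 0.17 and 0.45 in C, so the values of Npas2 depend on the probe.

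Of the genes that were not tested, Per1 (a repressor like Per2) and Ciart (a repressor of the BMAL1 pair) never rose clear of background on the 16 arrays. Per3 was well above background on 3 arrays (2 MM and 1 M), and Nr1d2, the REV-ERB-beta gene, on 2 (1 MM and 1 M). Their log2 ratios ran from -0.28 to 0.16 for Per1, from -0.40 to 0.15 for Ciart, from -0.03 to 0.50 for Per3 and from -0.08 to 0.57 for Nr1d2. No difference between groups could be read at such signals, and no fold change is given for them.

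**Figure D1:**
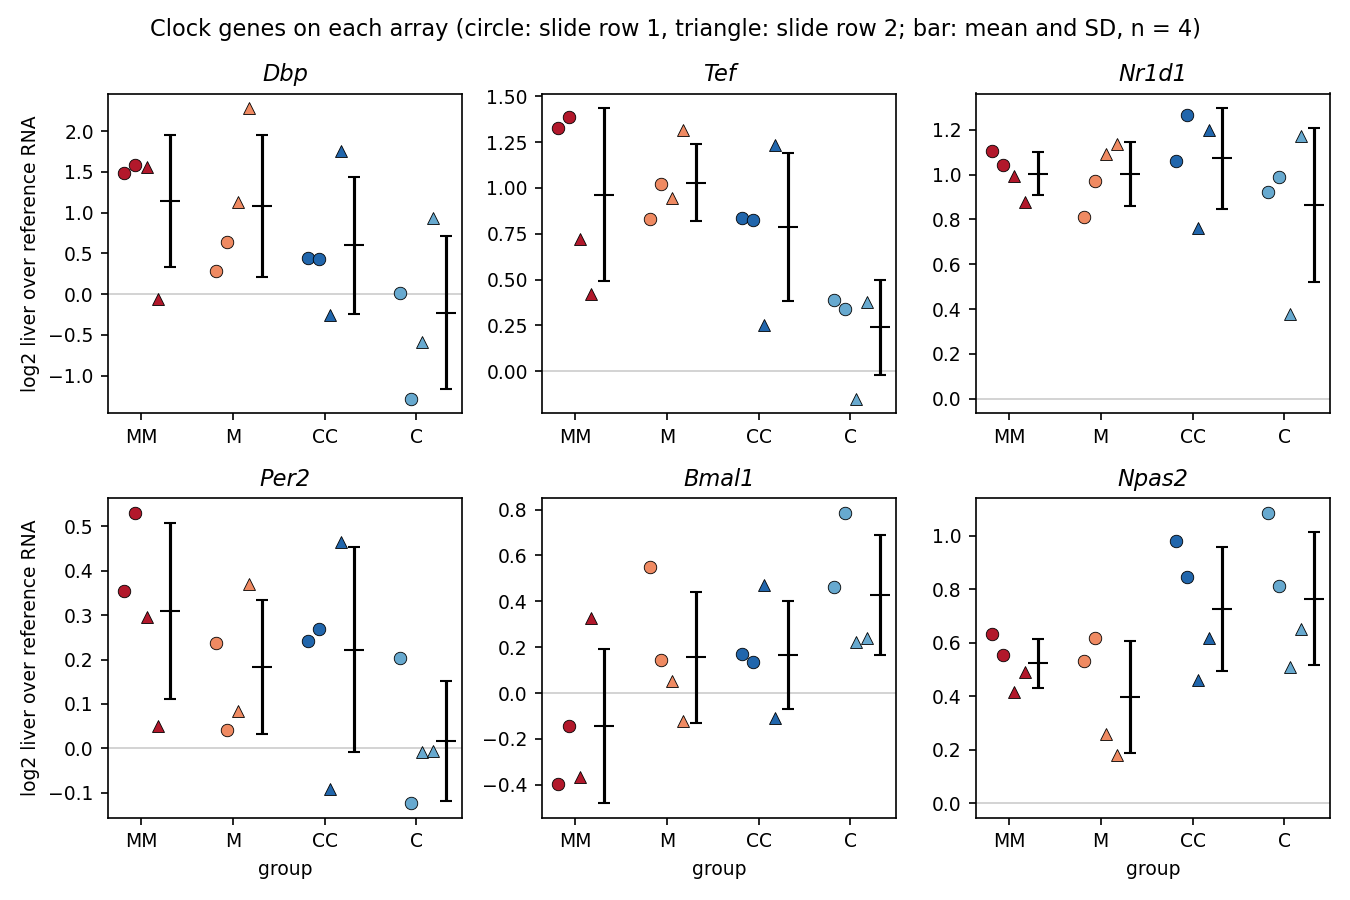
Log2 liver over reference ratio of the 6 tested clock genes on each of 16 arrays, by group (MM, M, CC, C; circles are slide row 1, triangles slide row 2, bars the mean and SD of 4 pools; each panel has its own scale). Dbp spans -1.28 to 2.28 with overlap of all groups. In each group the pool with the least Dbp has the most Bmal1, but C replicate 11 is low in both (-0.58 and 0.22). Tef has its highest mean in M and its lowest in C.

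Fostering within control litters was compared as CC minus C. None of the 6 tested clock genes changed in limma at an adjusted p under 0.05, and neither did any other feature (0% of 11091). Dbp averaged 0.60 ± 0.84 in CC and -0.23 ± 0.94 in C (SD, n = 4 each), a difference of 0.82 ± 0.54 (SE), and Tef averaged 0.79 ± 0.40 in CC and 0.24 ± 0.26 in C, a difference of 0.55 ± 0.23. Tef was the only member with an unadjusted limma p under 0.05 (0.028, with a limma adjusted p of 1.00), where 0.965% of all features were, and its CC and C pools overlapped. Within row 1 of the slide the Tef difference was 0.47, and within row 2 it was 0.63. Nr1d1 (0.21 ± 0.15) and Per2 (0.21 ± 0.13) had smaller positive differences, and Bmal1 (-0.26 ± 0.18) and Npas2 (-0.04 ± 0.14) negative ones. The median of the 6 differences was 0.21, beside -0.01 over all features. Without CC replicate 4 the Dbp difference was 0.44, and without C replicate 12 it was 1.21. The 95% interval for Dbp ran from a 0.801-fold to a 3.91-fold level in CC, so it held no change as well as a rise of more than the 1.77-fold estimate.

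Fostering within exposed litters, MM minus M, gave no call either (0 of 6, beside 0% of all features; 1.76% had an unadjusted p under 0.05, and 0 of 6 members). Dbp averaged 1.14 ± 0.81 in MM and 1.08 ± 0.87 in M, a difference of 0.06 ± 0.54, but it stood at 1.08 within slide row 1 and at -0.96 within row 2, and leaving out single arrays moved it between -0.21 (without M replicate 5) and 0.46 (without MM replicate 4). Tef (-0.06 ± 0.23) likewise had 0.43 within row 1 and -0.56 within row 2. Bmal1 was -0.14 ± 0.34 in MM and 0.16 ± 0.28 in M, a difference of -0.30 ± 0.18, with -0.62 within row 1 and 0.02 within row 2. Nr1d1 (0.00 ± 0.15), Per2 (0.13 ± 0.13) and Npas2 (0.13 ± 0.14) had differences no larger than their errors. The row values rest on 2 pools a group, and MM replicate 4 and M replicate 8 both lie in row 2. The test of whether the fostering difference depended on exposure, (MM minus M) minus (CC minus C), called 0 of 6 members and 0% of features, with 0 of 6 and 1.66% at an unadjusted p under 0.05. Its values were -0.77 ± 0.76 for Dbp, -0.61 ± 0.32 for Tef and -0.04 ± 0.26 for Bmal1.

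Exposure without fostering, M minus C, gave Dbp, Tef and Npas2 their widest differences. Dbp averaged 1.08 ± 0.87 in M and -0.23 ± 0.94 in C, a difference of 1.31 ± 0.54 or 2.48-fold, with a limma adjusted p of 0.214. Tef averaged 1.03 ± 0.21 in M and 0.24 ± 0.26 in C, a difference of 0.79 ± 0.23 or 1.73-fold, with a limma adjusted p of 0.0626. Npas2 averaged 0.40 ± 0.21 in M and 0.76 ± 0.25 in C, a difference of -0.37 ± 0.14, with a limma adjusted p of 0.171. None of these passed the threshold, so 0 of 6 members were called, beside 4.1% of all features (171 higher and 284 lower in M), and 3 of 6 members had an unadjusted p under 0.05, beside 17.3% of all features. Tef was the only member whose M and C pools did not overlap, and the share of all features without such overlap is not given here. Nr1d1 (0.14 ± 0.15), Per2 (0.17 ± 0.13) and Bmal1 (-0.27 ± 0.18) did not pass either.

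Part of the Tef ratio lay in the common reference, whose signal for Tef was lower on the slide of the M arrays: the reference channel differed by -0.14 (adjusted p = 8.7e-05 in limma) and the liver channel by 0.64 (adjusted p = 0.345 in limma). In MM minus CC the reference channel for Tef differed by -0.15 (limma adjusted p = 4.82e-05). For Dbp in M minus C the liver channel differed by 1.36 and the reference channel by -0.05. The reference for Nr1d1 was also lower on the M slide (-0.18, limma adjusted p = 0.000344) and that for Per2 higher (0.08, limma adjusted p = 0.0088). In MM minus CC these were -0.13 for Nr1d1 (limma adjusted p = 0.0051) and 0.11 for Per2 (limma adjusted p = 0.000989). The share of all features with such a difference in the reference channel is not given here, so these genes are not read as unusual in it. The share of exposure in these differences cannot be told apart from that of the slide. Tef passed at an adjusted limma p of 0.0451 without CC replicate 3 and at 0.044 without MM replicate 4, although neither array belongs to M or C, and with slide row as a block Tef passed at 0.032 and Npas2 at 0.0108, with the differences themselves unmoved. With the scanner software's own ratio both passed, Tef at 0.0253 (difference 1.08) and Npas2 at 0.00133 (difference -0.79).

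Exposure with fostering, MM minus CC, gave smaller values and no call (0 of 6, beside 0.902% of all features; 0 of 6 at an unadjusted p under 0.05, beside 11.1% of features). Dbp differed by 0.54 ± 0.54, Tef by 0.18 ± 0.23, Bmal1 by -0.31 ± 0.18 and Npas2 by -0.20 ± 0.14, and Nr1d1 (-0.07 ± 0.15) and Per2 (0.09 ± 0.13) by less. Dbp had 1.1 within slide row 1 and -0.01 within row 2. With the scanner software's ratio Npas2 passed (difference -0.51, limma adjusted p = 0.0344). Ordered by group mean, Dbp ran MM, M, CC, C from high to low and Bmal1 ran C, CC, M, MM, which is the reverse order. For Dbp the 4 means spanned 1.37, which is more than the largest SD within a group (0.94), and for Bmal1 0.57 against 0.34, but neighbouring groups in either order differed by less than that SD. Bulk RNA cannot tell fewer cells that express a gene from less RNA of it in each cell.

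**Figure D2:**
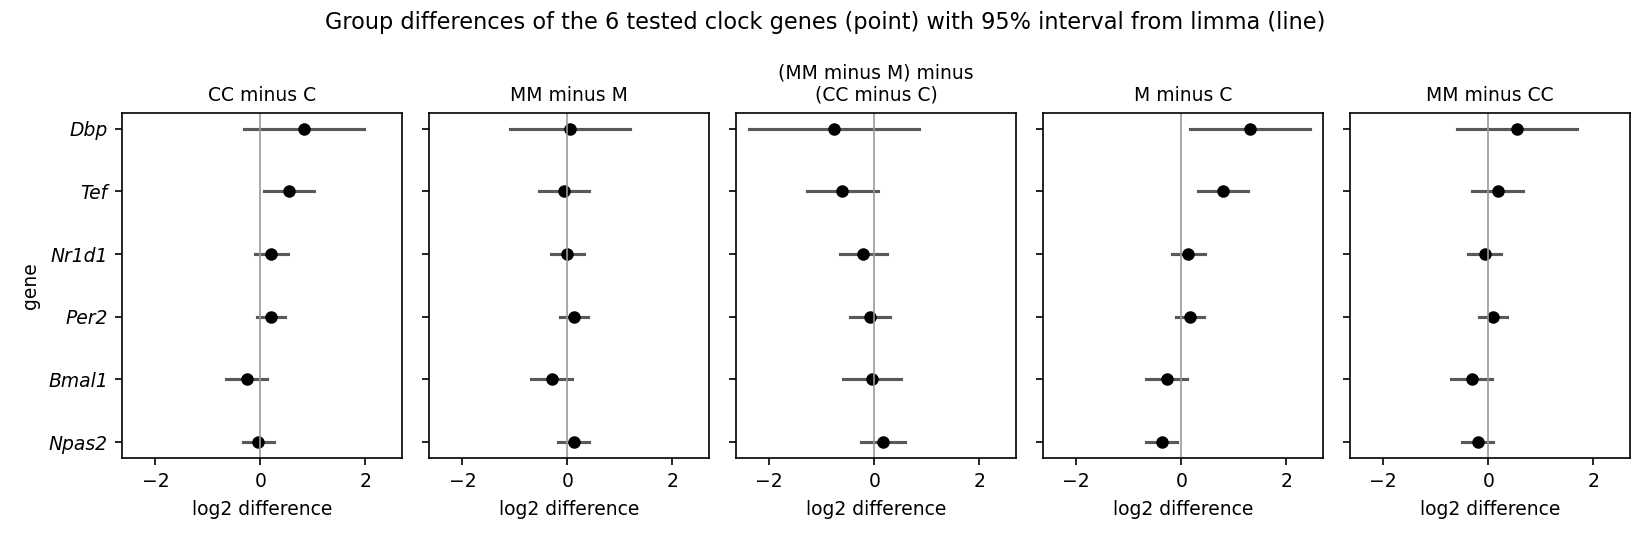
Differences in log2 ratio between groups for the 6 tested clock genes (points) with 95% intervals from limma (lines), 1 panel per comparison. The interval of Dbp is the widest in every panel, and only those of Tef in CC minus C and of Dbp, Tef and Npas2 in M minus C leave out 0 before adjustment.

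Beside these comparisons of groups, several clock genes moved together from pool to pool within groups. With each group's mean subtracted, the 45 pairs of members were correlated over the 16 arrays, with 100000 permutations of arrays within groups and Benjamini-Hochberg adjustment over the 45 pairs. Among Dbp, Tef, Nr1d1 and Per2 all 6 correlations were positive (0.39 to 0.78), and Bmal1 correlated negatively with each of these 4 (-0.85 to -0.33). Of the 15 pairs of tested members, 4 passed the threshold, and of the 30 pairs with a member that was not tested, none did (r from -0.63 to 0.65).

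Dbp and Bmal1 had the tightest relation. Pearson's r was -0.85 (permutation p = 0.00029, adjusted p = 0.013) and Spearman's rho was -0.78 (permutation p = 0.00258, adjusted p = 0.0471). Dbp lay 1.16 above its group mean in CC replicate 4, 1.17 above in C replicate 12 and 1.20 above in M replicate 8, and Bmal1 lay below its group mean in all 3, by -0.28, -0.19 and -0.28. In MM replicate 4 Dbp lay at -1.21 and Bmal1 at 0.47 from their group means, and the like held for M replicate 5 (-0.81 and 0.39), C replicate 10 (-1.06 and 0.36) and CC replicate 3 (-0.85 and 0.30). The genes lay on opposite sides of their group means on 11 of 16 arrays. Within the slide of M and MM r was -0.89 (exact permutation p = 0.0104) and within the slide of C and CC it was -0.81 (exact permutation p = 0.0417), each over 576 arrangements of 8 arrays. With slide row removed as well r was -0.79 (exact permutation p = 0.0625), without the 2 arrays most extreme in Dbp it was -0.85, and leaving out single arrays moved it between -0.92 and -0.80. The call itself was lost without CC replicate 3 (adjusted p = 0.0567) and without MM replicate 4 (adjusted p = 0.14).

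Tef followed Dbp at r = 0.70 and rho = 0.71 (permutation p = 0.00365 and 0.00375, adjusted p = 0.0488 and 0.0471). It followed Nr1d1 at r = 0.72 and rho = 0.71 (permutation p = 0.00076 and 0.00236, adjusted p = 0.0171 and 0.0471), and Per2 at r = 0.78 and rho = 0.75 (permutation p = 0.00434 and 0.00419, adjusted p = 0.0488 and 0.0471). Without the 2 arrays most extreme in Tef, r with Per2 was 0.54 and with Nr1d1 0.65, and without the 2 most extreme in Dbp, r of Dbp with Tef was 0.71. Within the slide of M and MM these were 0.75 with Dbp, 0.72 with Nr1d1 and 0.79 with Per2, and within the slide of C and CC 0.65, 0.82 and 0.77. In leave-one-out runs the call of Tef with Dbp held in 5 of 16, that of Tef with Per2 in 5 of 16 and that of Tef with Nr1d1 in 14 of 16, the exceptions for the last being CC replicate 3 and MM replicate 4. With slide row removed, Tef correlated with Dbp at 0.89 (exact permutation p = 0.00781), with Nr1d1 at 0.79 (exact permutation p = 0.0625) and with Per2 at 0.73 (exact permutation p = 0.141). Within rows, Tef with Per2 was -0.14 in row 1 and 0.89 in row 2, Tef with Nr1d1 0.40 and 0.81, and Tef with Dbp 0.49 and 0.95. Each row held 8 arrays, 2 of each group, so each r rests on 1 difference between pools per group. The difference between rows was not tested.

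Dbp with Per2 missed the threshold (r = 0.72, adjusted p = 0.055), as did Dbp with Nr1d1 (r = 0.58, adjusted p = 0.191), Tef with Bmal1 (r = -0.53, adjusted p = 0.209), Per2 with Bmal1 (r = -0.56, adjusted p = 0.191) and Nr1d1 with Bmal1 (r = -0.33, adjusted p = 0.487), all by permutation. Npas2 stood aside by its brighter probe, with r from -0.19 to 0.30 to the other 5, of which -0.19 was to Dbp and 0.22 to Bmal1. With slide row removed these 2 changed sign, to 0.50 with Dbp (exact permutation p = 0.227) and -0.37 with Bmal1 (exact permutation p = 0.305). Its dimmer probe lay at -0.71 to Dbp and 0.75 to Bmal1. The dimmer probe of Bmal1, never well above background, lay at 0.55 to the brighter 1 and at -0.42 to Dbp. Nr1d2 gave 0.65 with Dbp and -0.63 with Bmal1 (adjusted p = 0.0864 and 0.0746), although on most arrays its signal was near background.

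**Figure D3:**
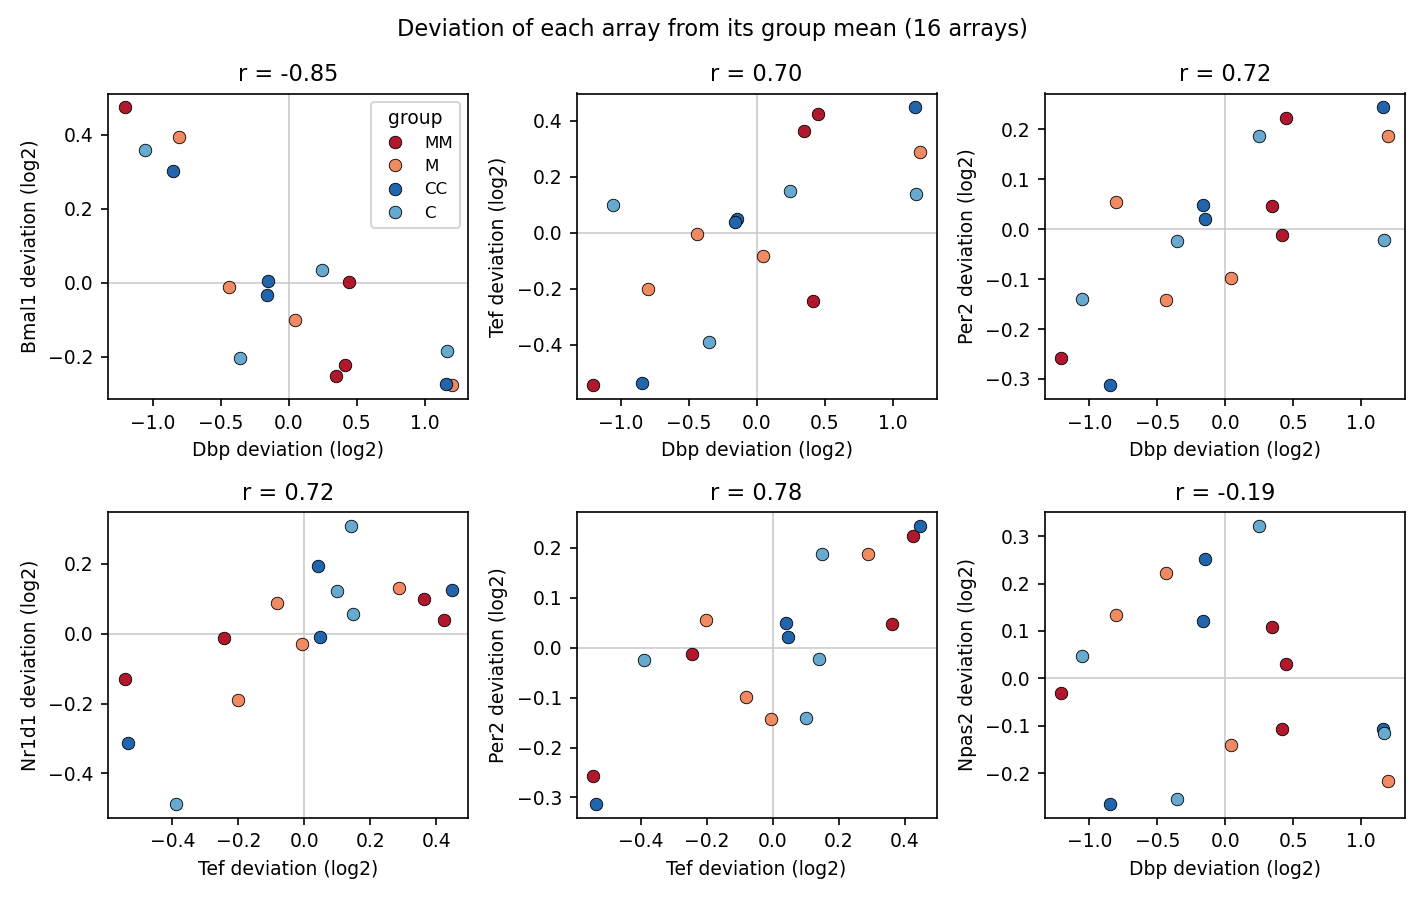
Deviation of each of 16 arrays from its group mean for 6 gene pairs, in log2 units, coloured by group. Bmal1 falls as Dbp rises (r = -0.85), Tef, Per2 and Nr1d1 rise with Dbp or Tef (r = 0.70 to 0.78), and Npas2 by its brighter probe shows no such slope against Dbp (r = -0.19).

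**Figure D4:**
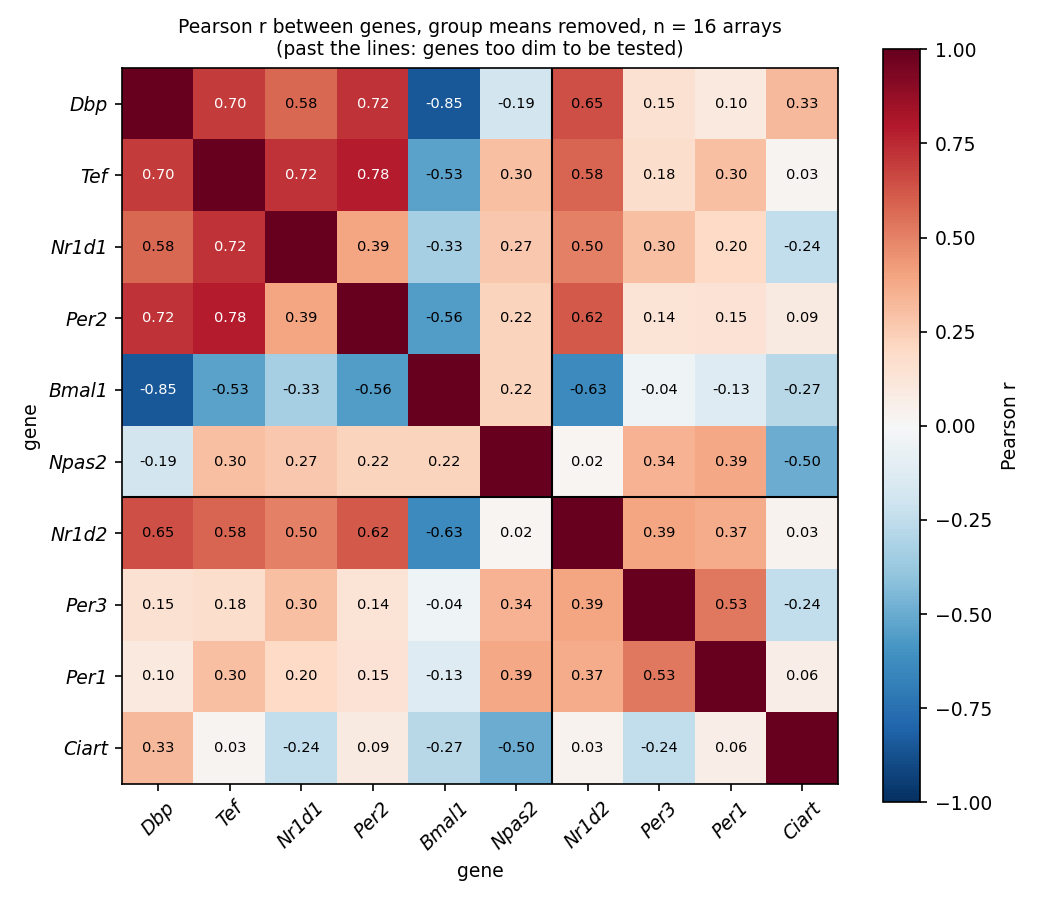
Pearson r of all 45 pairs of clock genes over 16 arrays with group means removed (red positive, blue negative, value in each cell); genes past the black lines were too dim in liver to be tested. Bmal1 is negative against Dbp, Tef, Nr1d1, Per2 and Nr1d2, which are positive among themselves.

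Array quality and cell-type markers were set beside these relations. The share of probes above background on an array correlated with Nr1d1 at r = 0.55 and rho = 0.53 (permutation p = 0.0337 and 0.0389, adjusted over 6 genes p = 0.202 and 0.234). Without the 2 arrays whose deviations from group means were most extreme in that share, r with Nr1d1 was 0.45. The share correlated with Tef at r = 0.41 and rho = 0.36 (permutation p = 0.212 and 0.253) and with Dbp at r = 0.13 and rho = 0.11 (permutation p = 0.66 and 0.716). The mean log2 ratio of markers correlated with Dbp at r = 0.30 for hepatocytes (8 of 8 genes tested), -0.27 for Kupffer cells (9 of 9), -0.50 for sinusoidal endothelial cells (5 of 8), -0.43 for stellate cells (7 of 7), 0.14 for cholangiocytes (4 of 5) and -0.32 for erythroid cells (5 of 5). With Bmal1 the endothelial markers correlated at r = 0.60 (rho = 0.42, permutation p = 0.0329 and 0.146) and the erythroid markers at r = 0.44 (rho = 0.71, permutation p = 0.174 and 0.00827). None of the 12 relations passed after adjustment (permutation, adjusted p from 0.395 to 0.62 for r and from 0.0992 to 0.964 for rho). For each marker list, r was also taken without the 2 arrays whose deviations from group means were most extreme in that list. The deviations were those from the means of the full groups. The values with Dbp were then -0.16 for endothelial, -0.58 for erythroid, -0.41 for stellate and -0.45 for cholangiocyte markers, the last with a changed sign. Those with Bmal1 were 0.28, 0.57, 0.29 and 0.50 in the same order. Endothelial markers ran from 1.82 to 2.17 in MM, 2.07 to 2.25 in M, 2.03 to 2.25 in CC and 1.78 to 2.20 in C, and erythroid markers from 2.41 to 3.33 in MM, 2.45 to 2.82 in M, 2.59 to 3.13 in CC and 2.85 to 3.07 in C. Hepatocyte markers ran from 5.76 to 6.06 in MM, 5.81 to 5.94 in M, 6.04 to 6.14 in CC and 5.94 to 6.20 in C. The part of quality or cell makeup in the clock gene correlations was not tested.

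Over all 11084 features other than Dbp, 6.8% had an absolute r with Dbp of 0.5 or more, and the central 95% lay between -0.55 and 0.52. Of the 5 other tested clock genes 4 did, all but Npas2. Ranked by absolute r, Bmal1 came 3rd of the 11084, Per2 70th, Tef 95th, Nr1d1 378th and Npas2 5417th. These are descriptions, since the genes were chosen with earlier results of these data known.

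Further clock genes, clock-driven genes, glucocorticoid targets and immediate early genes were taken from 8 lists (76 genes besides the 10). Of these 52 were tested, 11 were too dim and 13 had no matching probe, among them the DBP relative Hlf and the repressor Bhlhe41. An absolute r of 0.5 or more with Dbp was reached by 12 of the 52, beside the 6.8% of all features. Dusp1, Ier3 and Btg2, listed only as glucocorticoid targets or immediate early genes, are among the 12. Of the remaining core factors, Clock lay at r = -0.18, Bmal2 at 0.09, Cry1 at -0.02, Cry2 at -0.29 and the D-box repressor Nfil3 at -0.19, while Bhlhe40, an E-box repressor, lay at 0.60. Among 8 tested modifiers of clock proteins, the deubiquitinase Usp2, itself rhythmic in liver, lay at 0.72, the kinase gene Gsk3b at 0.52, the ubiquitin ligase gene Btrc at 0.25 and the replication fork gene Tipin at -0.19. None of these core factors and modifiers was called in any of the 5 comparisons.

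Among 24 tested liver output genes, 6 reached that size. Por, which passes electrons to every microsomal cytochrome P450, lay at 0.84, the triglyceride lipase gene Pnpla2 at 0.74, the lipase inhibitor gene Angptl4 at -0.76 and the coenzyme Q gene Coq10b at 0.52. Por was also the only output gene called in a comparison, 1 of 24 in M minus C, beside 4.1% of all features there. It stood at 1.25, 1.51, 1.16 and 0.95 in MM, at 1.08, 0.69, 1.28 and 2.03 in M, at 0.36, 0.52, 0.23 and 0.92 in CC and at 0.11, -0.01, 0.36 and 0.85 in C, so that M replicate 6 lay below C replicate 12 and the groups overlapped. Por rose in M relative to C by 0.94 ± 0.25 (limma adjusted p = 0.0433) and did not pass in MM minus CC (0.71 ± 0.25, limma adjusted p = 0.241) or in CC minus C (0.18 ± 0.25). The call held in 12 of 24 alternatives, and in 6 of 16 with an array left out. In the liver channel alone it was 0.59 (limma adjusted p = 0.583), and without M replicate 8, the pool with the most Dbp, 0.69 (limma adjusted p = 0.126). The median M minus C difference was 0.08 over the 24 outputs, beside -0.03 over all features.

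Targets of glucocorticoids, hormones that can shift the clock, and immediate early genes were listed beside them. Of 9 tested glucocorticoid targets none was called in any comparison, and 2 had an absolute r with Dbp of 0.5 or more: the phosphatase gene Dusp1 at 0.60 and the transcription factor gene Klf9 at 0.52. Fkbp5, a co-chaperone of the glucocorticoid receptor, lay just under that at 0.499 and the zinc finger gene Zbtb16 at 0.49, and Dusp1 and Zbtb16 were well above background on only 7 arrays each. Of 9 tested immediate early genes 3 reached that size, Ier3 (0.63), Dusp1 (0.60, listed in both) and the growth inhibitor gene Btg2 (0.56), and the orphan receptor gene Nr4a1 lay at 0.45. Of the 9, 1 was called in a comparison, Jun in M minus C, beside 4.1% of all features there. Jun fell in M relative to C by 1.32 on the log2 scale (SE 0.35, limma adjusted p = 0.0452). That call held in 10 of 24 alternatives and in 5 of 16 with an array left out. In the liver channel alone the Jun difference was -0.69 (limma adjusted p = 0.689). The median M minus C difference was 0.25 over the glucocorticoid targets and -0.03 over the immediate early genes, beside -0.03 over all features.

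**Figure D5:**
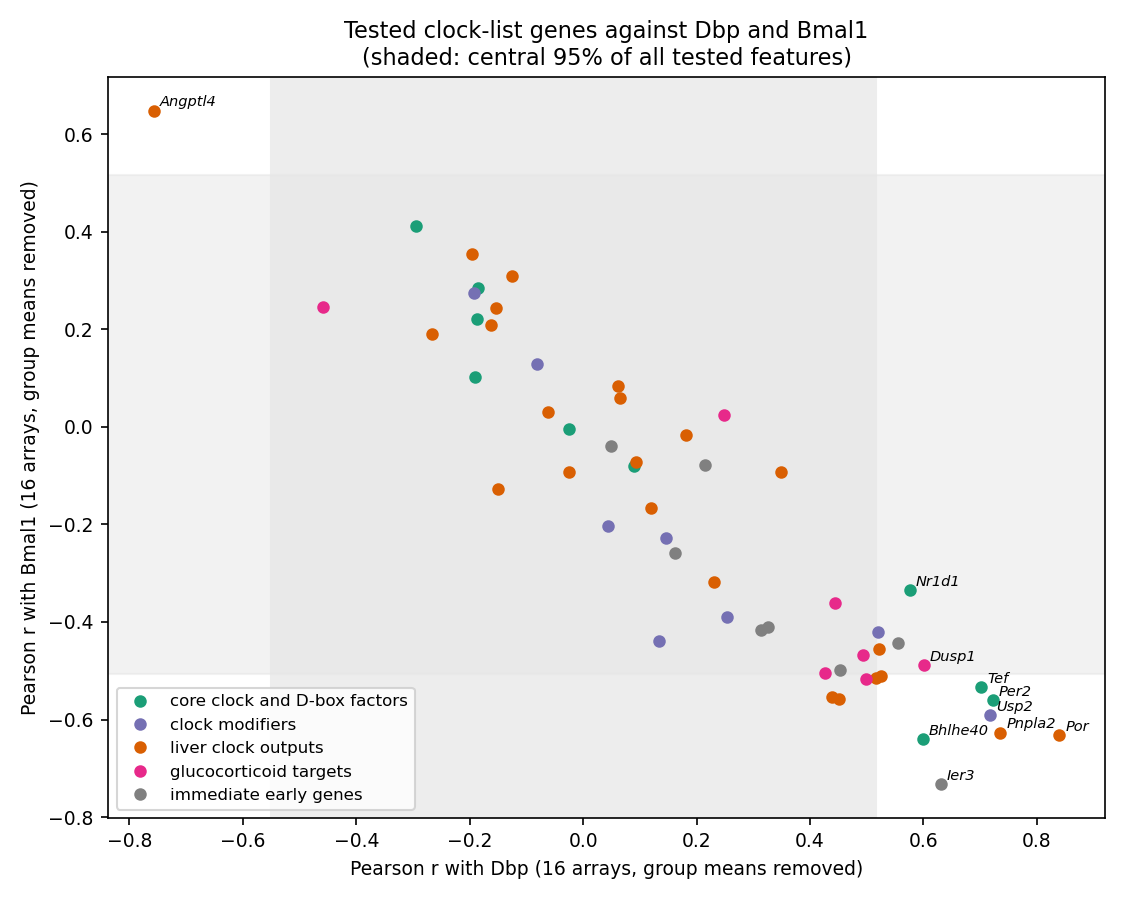
Pearson r with Dbp (horizontal) against r with Bmal1 (vertical) for each tested gene of the clock lists, over 16 arrays with group means removed; colours give the list and grey bands the central 95% of all tested features. Genes at r with Dbp of 0.57 or more, in either direction, are named: Nr1d1, Dusp1, Tef, Per2, Usp2, Pnpla2, Por, Bhlhe40 and Ier3 lie at right, below 0 against Bmal1, and Angptl4 at upper left.

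The genes most like Dbp from pool to pool were sought among 6001 named genes that were well above background on all 16 arrays. Highest were Nr5a2 (0.88), Por (0.84), Cyfip1 and Immt (0.81 each), Fbxo21, Derl3 and Srsf4 (0.79 each) and Dab2ip (0.78). Nr5a2 encodes a nuclear receptor of bile acid synthesis, Immt a protein that shapes the inner mitochondrial membrane and Derl3 a factor that clears misfolded proteins from the endoplasmic reticulum. Nr5a2 stood at 1.70, 1.46, 1.85 and 1.14 in MM, at 1.34, 1.47, 1.75 and 2.53 in M, at 1.62, 1.45, 1.43 and 2.36 in CC and at 1.76, 1.73, 1.91 and 2.28 in C. The 3 pools with the highest Nr5a2, M replicate 8, CC replicate 4 and C replicate 12, were also the ones farthest above their group mean in Dbp, and MM replicate 4 was lowest in its group for both. In the liver channel alone r of Nr5a2 with Dbp was 0.71.

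For Bmal1 the highest were Chka (0.97), Dapk1 (0.87), Tubb2a (0.84), Egfr (0.82), Ranbp6 (0.81), Etv6 (0.79), Nop58 (0.78) and Pgam5 (0.77). Chka, which encodes choline kinase of the phosphatidylcholine pathway, was the closest of them. It stood at 1.05, 1.46, 1.30 and 2.28 in MM, at 2.40, 1.79, 1.46 and 1.24 in M, at 1.67, 1.96, 2.29 and 1.17 in CC and at 2.19, 2.48, 1.80 and 1.76 in C. Its highest pool in each group was the same as for Bmal1, namely MM replicate 4, M replicate 5, CC replicate 3 and C replicate 10. The correlation was 0.99 within the slide of M and MM, 0.93 within that of C and CC and 0.93 in the liver channel alone. These genes are the extremes of 6001, so their correlations are descriptions and carry no p.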

How the data were processed

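Agilent rat arrays held liver RNA (Cy5) and a universal rat reference RNA (Cy3). Per the file headers, the spot intensity values deposited were read with Agilent Feature Extraction 11.0.1.1, and the log10 ratio in the same files is that software's own red over green. The authors' deposited value table holds log2 ratios; no label or header says how they were made. Compared with uncorrected loess ratios, it ran the same way, with slopes of 0.979 to 0.994, r of 0.989 to 0.995 and medians of -0.04 to -0.03. All value columns were mapped to samples.

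Median spot signals were corrected by normexp (offset 50), normalized by loess within arrays (limma 3.58.1, R 4.3.3) and averaged per probe, leaving out control and outlier spots (732 to 1138 per array). The brightest probe in liver stood for a gene. A feature was tested if well above background in liver on at least 3 of 4 arrays of a group. Of 30367 probes 18005 had a gene symbol, through the accession and the RefSeq gene table. limma fitted 4 group means to 16 arrays (12 residual degrees of freedom), with Benjamini-Hochberg adjustment at 0.05, and the fit was tested on simulated data. The number of arrays limits the precision.

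Correlations used deviations from group means with permutation within groups, all two-sided. Arrays left out as most extreme in a gene were so by these deviations. CC and MM share the numbers 1 to 4 in the labels. Deviations of same-numbered arrays correlated at 0.55, 0.16, 0.58 and 0.19, so a fit with the number as a block was run as well. The other alternatives were the scanner ratio, no background correction, the deposited table, the liver channel alone, other probe filters, the mean of all probes, slide row as a block, within-slide values and leaving out arrays. The genes, lists and tests were chosen with earlier results of these data known. Named are all 10 clock genes, list genes past the test, up to 4 per list with the largest absolute r with Dbp, and the 8 genes most like Dbp and the 8 most like Bmal1. Genes of a list named for having no probe were chosen after seeing that. The relations of cell-type markers with Bmal1 were added after those with Dbp had been seen.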

Additional observations from a re-analysis of the deposited data

Results flagged for a closer look

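In 4 of 40 sets of 4 arrays (10 clock genes in 4 groups) a pool stood far from the others by Dixon's test, where chance alone gives about 1 in 20. Dbp was -0.0654 in MM replicate 4 and 1.49 to 1.59 in the other 3 MM pools. Tef was -0.15 in C replicate 11 and 0.34 to 0.39 in the other C pools. Nr1d2, near background, was 0.38 in MM replicate 1 and 0.22 to 0.23 in the other MM pools. Ciart, well above background on no array, was 0.0721 in M replicate 8 and -0.22 to -0.20 in the other M pools.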

How the results depend on the processing

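No clock gene difference that passed the threshold under any alternative changed sign there. With the scanner software's log ratio, 2 clock genes (Tef and Npas2) and 1366 features were called in M minus C, 1 clock gene (Npas2) and 491 features in MM minus CC, and 1 feature in CC minus C. In the liver channel alone 1 feature was called in M minus C and 3 in MM minus CC. With slide row as a block the calls were 2 clock genes (Tef and Npas2) and 1199 features in M minus C, and 439 features in MM minus CC. With arrays left out in turn, 0 to 1 clock genes (Tef) and 215 to 532 features were called in M minus C, the fewest without M replicate 8, and 36 to 111 features in MM minus CC, the fewest without CC replicate 2. With the replicate number as a block to pair CC and MM, 135 features and 0 clock genes were called, beside 100 and 0 without it, and no clock gene's call changed.

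The number of correlated pairs changed with the processing. Against 4 pairs, 9 passed with the scanner ratio, 7 with the mean of all probes, 2 with the deposited table and 1 in the liver channel alone. Without the 2 arrays most extreme in the first gene of each pair 0 passed, with fewer arrays. With slide row means removed, within slide 1 and within slide 2, 0 passed as well. Those 3 settings had too few arrangements for a lone pair to pass after adjustment over 45 pairs, so their counts cannot speak to stability. Leaving out arrays gave 0 to 8 pairs, with 0 without CC replicate 3 or MM replicate 4 and 8 without C replicate 12. Dbp with Bmal1 passed in 19 of 25 alternatives and stayed between -0.92 and -0.76. Dbp with Tef ran from 0.61 to 0.89, Tef with Nr1d1 from 0.59 to 0.86 and Tef with Per2 from 0.54 to 0.84. Some pairs that had not passed moved more. Tef with Bmal1 ran from -0.73 to -0.13, Nr1d1 with Bmal1 from -0.89 to -0.11 and Dbp with Npas2 from -0.52 to 0.50. Signals near background limit what can be read for Per2 and Bmal1, and 4 pools a group leave wide intervals for Dbp.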
